A study of Mus musculus with 14 samples.

Results

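RNA of the aorta-gonad-mesonephros region (AGM) was compared with RNA of dorsal skin in mouse embryos labelled as embryonic day 9.5 (E9.5). The comparison rests on 3 of the series' 14 libraries, chosen by their titles. They are both libraries titled as AGM at E9.5, one from each of 2 project numbers in the labels, called the first and second round here, and the single library titled E9.5 of the first skin project. The AGM libraries are labelled as the embryo's caudal part with the para-aortic splanchnopleura, the tissue from which the AGM forms. The skin library is labelled as dorsal skin of the embryo. All embryos were wild-type C57BL/6, and the labels name no treatment. The series measured polyA RNA by sequencing in AGM of 3 labelled ages between E9.5 and E11.5 and in dorsal skin of 4 labelled ages between E9.5 and E14.5. The second skin project was left out here. No sequencing project holds both tissues, so tissue and project cannot be told apart. Whether the libraries came from separate embryos is not in the labels. The p-values rest on the spread between particular libraries, namely within the AGM pairs labelled E9.5, E10.5 and E11.5. The single skin library adds nothing to that spread. The AGM pairs at E9.5 and E10.5 differ in Xist, an RNA made in female cells, with 0.203 and 494 CPM at E9.5 and 0.612 and 1035 CPM at E10.5, so these pairs are not single RNA samples sequenced again. The age of the second-round AGM library rests on an assumption, since its column carries only a sample number, which was read through the first-round labels.

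The AGM lies along the dorsal aorta, where the first definitive blood stem cells bud from the vessel wall under the control of Runx1 and Gata2. Around the aorta lie the mesonephros, the transient kidney that forms from intermediate mesoderm, and the gonadal ridge, which forms from the coelomic epithelium. Dorsal skin at this age is a simple surface ectoderm over mesenchyme, close to the neural tube and somites, and stratified epidermis with basal keratins forms later. Hox genes record position along the trunk, with low-numbered paralogue groups active towards the head and high-numbered groups towards the tail.

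The AGM libraries held 29534551 and 24335839 counts and the skin library 19929352 counts, so 3 counts in skin correspond to 0.151 CPM, the usual scaling of a count by its library's total. Across 14503 genes, log2(CPM + 1) of the skin library correlated at r = 0.919 and 0.93 with the 2 AGM libraries labelled E9.5. The correlation was 0.947 and 0.951 with those labelled E10.5 and 0.969 and 0.967 with those labelled E11.5. Genes are not independent replicates, so these correlations are descriptions. The AGM libraries labelled E9.5 were least like the skin of the same labelled age.

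Stage markers in these libraries went against the age label. Lin28a, an RNA-binding protein whose level falls as embryos mature, had 23 and 40.8 CPM in AGM labelled E9.5. It had 121 and 129 CPM in AGM labelled E10.5, 571 and 496 CPM in AGM labelled E11.5, and 366 CPM in skin E9.5. Both E9.5 values were the lowest of the 3 labelled ages. Cdx2, a caudal homeobox gene of the tailbud and hindgut, had 0.474 and 0.247 CPM in AGM labelled E9.5, against 49.2 and 23.1 CPM in AGM labelled E11.5. Cdx4, which marks the tailbud, was at 0 counts in both libraries labelled E9.5 and had 51.9 and 29.2 CPM in those labelled E11.5. Nr5a1, which specifies the gonad and adrenal cortex and whose product is also called SF-1, had 17 and 13.4 CPM in AGM labelled E9.5. It had 9.71 and 7.32 CPM at the labelled E10.5 and 0.0806 and 0 CPM at the labelled E11.5. What lies behind this order was not tested, and each result is given for the libraries labelled AGM E9.5. Unless another age is named, AGM refers to those libraries.

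**Figure D1:**
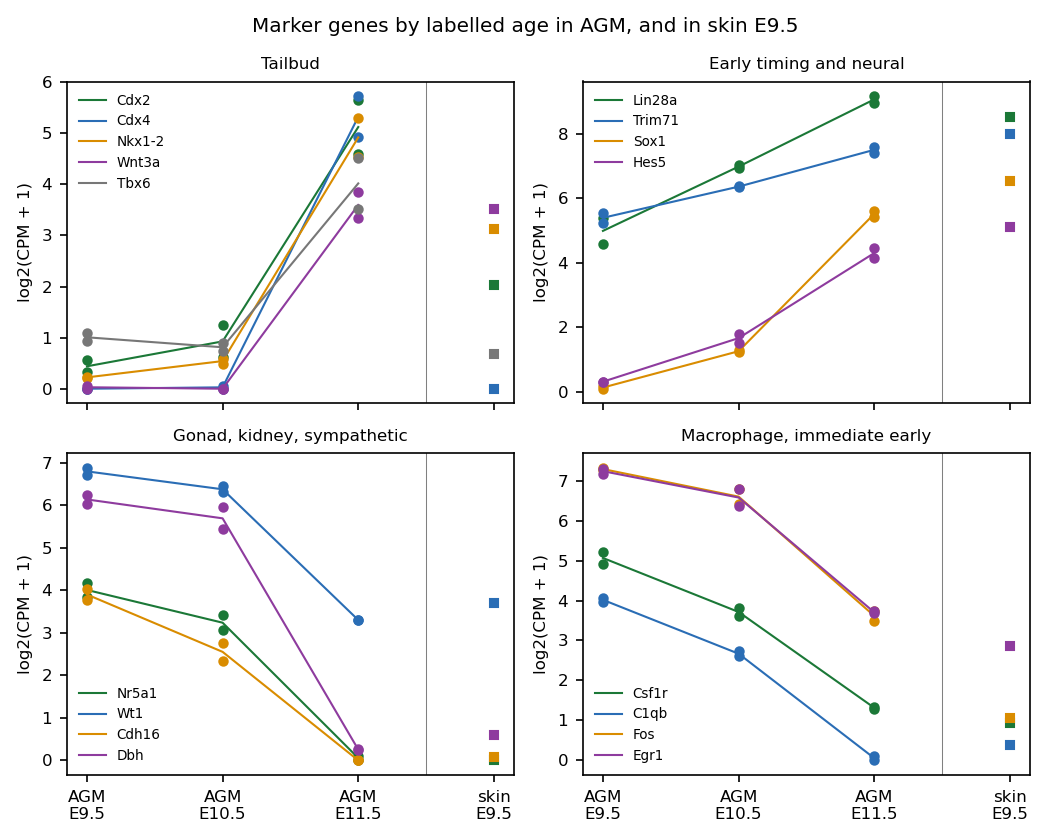
Log2(CPM + 1) of marker genes (y axis) in AGM libraries by labelled age and in the skin E9.5 library (x axis). Circles are AGM libraries, lines join the means of 2 libraries, and squares are the single skin library. Tailbud and early timing genes were lowest in AGM labelled E9.5 or E10.5 and highest in AGM labelled E11.5, while gonad, sympathetic and macrophage genes ran the other way.

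Defining markers of both tissues were checked. The AGM libraries held RNA of endothelium (Cdh5, VE-cadherin, 111 and 86 CPM), of the nephric lineage (Pax2, 23.8 and 20.3 CPM), of coelomic epithelium (Wt1, 117 and 104 CPM) and of blood precursors (Runx1, 10.6 and 7.52 CPM). In the skin library, the basal keratins Krt5 and Krt14 had 3.36 and 0.652 CPM, while Krt8 and Krt18 of simple epithelium had 29.7 and 49.3 CPM. Markers of neural progenitors, which belong to the neural tube, were abundant there. The 15 genes of that list summed to 48.5 and 52.8 CPM in AGM and to 952 CPM in skin, and none was at 0 in skin. The part of neural tube RNA in the tissue differences was not tested.

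Of 19945 genes that passed the low-count filter, 6759 (33.9%) had an adjusted p under 0.05 by edgeR's quasi-likelihood test with Benjamini-Hochberg adjustment. Of these, 3586 were higher in AGM (18.0% of genes tested) and 3173 were lower (15.9%). At a log2 change of 3 or more, that is 8-fold, 580 of the called genes were higher and 388 lower. The median log2 change over all genes tested was 0.04. The single skin library has no replicate check: its spread was assumed to match that of the AGM pairs, whose coefficient of variation was 12.1%. When second-project skin stood in as a second replicate, no gene passed edgeR's adjusted threshold and 950 had an unadjusted p under 0.05, with a coefficient of variation of 81.5%. With the AGM round as a block, 10232 genes passed. That block takes the round difference out of the error, with a coefficient of variation of 6.3%, and gives skin no such term. Both AGM libraries lay above the skin library for 47.4% of genes tested and below it for 38.5%, so groups that do not overlap were common.

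The Hox genes split by paralogue group. Of 39 listed, 37 passed the filter. In groups 11 to 13, 6 of 7 tested members rose in AGM, with a median log2 change of 6.07, and in groups 9 and 10, 5 of 7 rose and 1 fell. In groups 1 to 3, 6 of 8 fell, and in groups 4 and 5, 4 of 7 fell, with medians of -1.15 and -0.76. In groups 6 to 8, 1 rose, 1 fell and 6 did not pass the test.

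Hoxd12 (chromosome 2, 74675013 to 74677705, GRCm38) had 17.7 and 16.1 CPM in AGM and 0 counts in skin. It was at least 113-fold higher in AGM, against a floor of 3 counts in the skin library. Hoxc11 had 12.3 and 11.8 CPM in AGM and 0 counts in skin, at least 80.2-fold higher. These genes pattern the end of the trunk, the limbs and the urogenital tract. Hoxa13, needed for the cloaca and genital tubercle, had 11.6 and 11.9 CPM in AGM against 0.0502 CPM, 1 count, in skin. The ratio of pooled values was 234, with a 95% counting interval of 41.9 to 9264. Hoxc10, a gene of the lumbar level and hindlimb, had 44.7 and 57 CPM in AGM against 0.201 CPM in skin, a log2 change of 7.90 ± 0.63 (SE; adjusted p = 8.8e-05). Hoxd13 had 35.3 and 29.3 CPM in AGM against 0.652 CPM in skin, a log2 change of 5.57 ± 0.60. In each of these genes both AGM libraries stood far above the skin E9.5 library. Standing above it was a condition for naming Hoxd12, Hoxa13 and Hoxc10 among the 15 highest changes. The first-project skin library labelled E12.5 held 86.7 CPM of Hoxd12, 57.9 CPM of Hoxa13 and 300 CPM of Hoxd13. It held 0.25 CPM of Hoxc11 and 1.96 CPM of Hoxc10. The second-project skin library labelled E9.5 held 20.7 CPM of Hoxd13 and 6.12 CPM of Hoxa13. Hoxc10, Hoxd12 and Hoxc11 had 3.4, 2.38 and 0.113 CPM there.

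Hoxb8 and Hoxb9 ran against that order. Every tested Hoxb gene had a negative log2 change, from -0.42 for Hoxb3 to -3.34 for Hoxb1, though Hoxb3, Hoxb6 and Hoxb7 did not pass. Hoxb13 was not tested, so the split by group also differed by cluster. Hoxb9 had 43.3 and 49.6 CPM in AGM and 212 CPM in skin, a log2 change of -2.24 ± 0.12 (adjusted p = 1.1e-05). Hoxb8 had 26.7 and 30.7 CPM in AGM and 102 CPM in skin, with a log2 change of -1.88 ± 0.14. Hoxa9, of the same paralogue group as Hoxb9, had 43 and 65.7 CPM in AGM and 12.9 CPM in skin, with a log2 change of 2.02 ± 0.28. At the anterior end, Hoxb1, a gene of the hindbrain, had 3.08 and 3.62 CPM in AGM against 32.7 CPM in skin. Its log2 change was -3.34 ± 0.22.

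**Figure D2:**
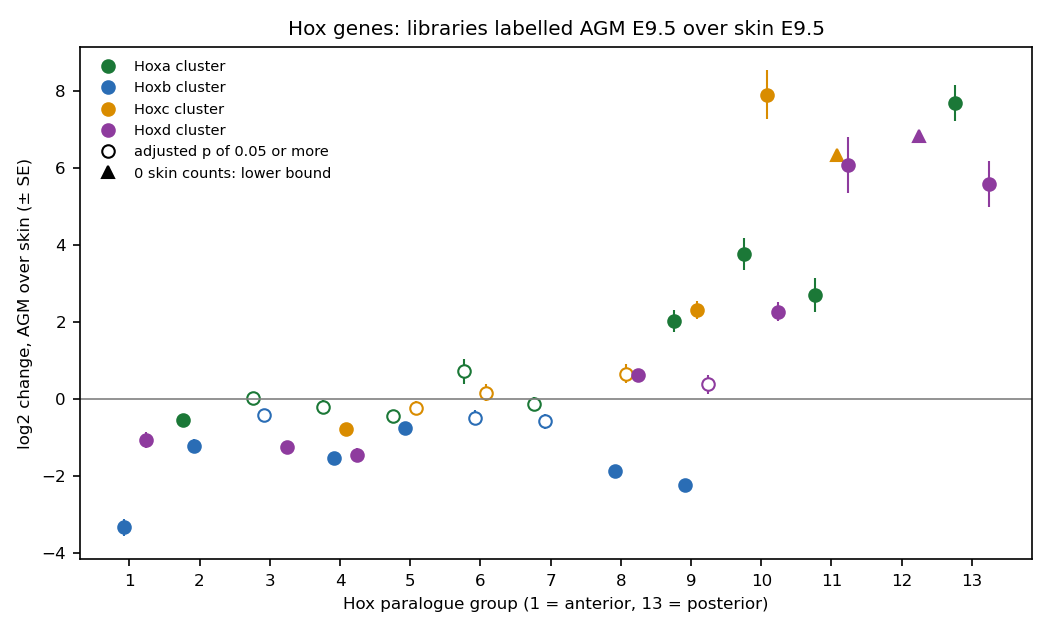
Fitted log2 change of Hox genes (y axis, AGM over skin at E9.5, bars ± SE) by paralogue group (x axis), coloured by cluster, with some tested genes not drawn. Filled symbols passed the adjusted threshold, and triangles are lower bounds for Hoxc11 and Hoxd12, which had 0 skin counts. Changes lay between -3.34 and 0.71 in groups 1 to 8 and reached 7.90 in group 10, with Hoxb9 below 0.

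Genes of the urogenital system rose. Of 12 genes of intermediate mesoderm and mesonephros, 10 rose and none fell, with a median log2 change of 1.83. Wt1, a transcription factor of coelomic epithelium and nephrogenic mesoderm, had 117 and 104 CPM in AGM against 12.1 CPM in skin, a log2 change of 3.14 ± 0.17 (adjusted p = 1.3e-05). Osr1, an early marker of intermediate mesoderm, had 59.1 and 51.6 CPM against 9.13 CPM in skin. Wnt9b, the signal from the nephric duct that induces tubules, had 12.7 and 11.2 CPM in AGM against 0.853 CPM in skin, with a log2 change of 3.75 ± 0.33. Emx2, needed for the urogenital tract, had 37 and 43.1 CPM against 4.97 CPM in skin. Lhx1 and Sim1 did not pass the test. Cdh16, the kidney-specific cadherin, had 15.3 and 12.7 CPM in AGM against 1 count in skin, a ratio of 282 (95% counting interval 50.4 to 11149). Agtr2, the type 2 angiotensin receptor, had 45.1 and 41.4 CPM in AGM against 0.1 CPM, 2 counts, in skin. Its ratio was 433 (95% counting interval 120 to 3578). The second-project skin library labelled E9.5 held 319 CPM of Agtr2, and with that project added its direction turned, with a fitted log2 change of -2.18. Calb1, the calcium-binding protein calbindin, had 21.4 and 26.4 CPM against 0.151 CPM in skin.

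Of 7 genes of coelomic epithelium and gonad, 3 rose: Wt1, Nr5a1 and Tcf21. Nr5a1 was at 0 counts in skin and at least 102-fold higher in AGM. Gata4 (47.7 and 33.3 CPM in AGM, 32.7 CPM in skin) and Lhx9 (25.6 and 24.2 CPM in AGM, 25.8 CPM in skin), which act with these genes in the gonadal ridge, did not pass the test. Dbh, the enzyme that makes noradrenaline and a marker of sympathetic neurons and the adrenal medulla, had 74.7 and 64.5 CPM in AGM against 0.502 CPM in skin. Its log2 change was 7.05 ± 0.40 (adjusted p = 1.7e-05).

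Hindlimb and caudal mesoderm genes rose in 7 of 8 cases. Tbx4, the T-box factor of the hindlimb, had 17 and 20.3 CPM in AGM against 0.652 CPM in skin, with a log2 change of 4.78 ± 0.47. Tbx5, its forelimb counterpart, had 19.1 and 18.9 CPM in AGM and 19.7 CPM in skin and did not pass the test. Pitx1 differed between the AGM libraries, at 7.72 and 18.4 CPM, against 2.91 CPM in skin. Hand1 was the member that fell, with 13.2 and 9.25 CPM in AGM and 20.2 CPM in skin. Its log2 change was -0.89 ± 0.28, and 0.15 with second-project skin added. Without the second-round AGM library its adjusted p by edgeR was 0.128. Of 6 forelimb field genes none rose, and Sall4 and Lmx1b fell, beside 18.0% higher and 15.9% lower of all genes tested. Neither label names a limb, and the part of limb tissue was not tested.

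Most endothelial genes did not pass the test. Of 16 pan-endothelial genes, 1 rose, 2 fell and 13 did not pass, with a median log2 change of -0.14. Kdr, the main VEGF receptor, had 109 and 95.4 CPM in AGM and 129 CPM in skin, a log2 change of -0.39 ± 0.14 (adjusted p = 0.0636). Cdh5 had 95.3 CPM in skin, between its 2 AGM values. The genes past the threshold were Fli1, which rose, and Flt1 and Etv2, which fell. Etv2 lost its call without the first-round AGM library (adjusted p = 0.0918 by edgeR) and without the second-round one (0.0502), and Flt1 without the second-round one (0.0659). With the AGM round as a block, 4 rose and 6 fell. Of 15 arterial and venous genes, 3 rose (Unc5b, Nrp1 and Ephb4), Cxcr4 fell and 11 did not pass. Among all genes tested, 18.0% were higher and 15.9% lower. Unc5b had a log2 change of 1.14 ± 0.31, and -0.88 with second-project skin added. Without the first-round AGM library, edgeR's adjusted p was 0.0735 for Unc5b and 0.135 for Ephb4. In bulk RNA, fewer cells of a type and less RNA per cell cannot be told apart.

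Regulators of blood formation rose in part. Of 13 genes, 7 rose and 1 fell, with a median log2 change of 1.11. Runx1, required for blood stem cells to emerge from endothelium, had 10.6 and 7.52 CPM in AGM against 2.71 CPM in skin, a log2 change of 1.69 ± 0.35 (adjusted p = 0.00722). The second-project skin library labelled E9.5 held 33.4 CPM of Runx1, and with that project added its log2 change was -1.27 and did not pass the test. Gata2, which acts with it, had 47.8 and 30.8 CPM in AGM against 7.83 CPM in skin, with a log2 change of 2.28 ± 0.38. Gfi1, a target of Runx1 that silences the endothelial programme, had 0.406 and 0.575 CPM in AGM and 0.151 CPM in skin and did not pass the test. Spi1, the PU.1 factor of myeloid cells, had 5.38 and 4.52 CPM in AGM against 0.251 CPM in skin. Of 8 surface genes of blood progenitors, Itga2b (CD41) and Ptprc (CD45) rose and Adgrg1 fell. Kit, the stem cell factor receptor, had 52.1 and 43.7 CPM in AGM and 34.5 CPM in skin, an adjusted p of 0.0871.

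Macrophage and red cell genes moved with these regulators. All 12 macrophage genes rose, with a median log2 change of 5.64, and summed to 185 and 165 CPM in AGM against 4.47 CPM in skin. Csf1r, the receptor for the growth factor of macrophages, had 36.1 and 29.2 CPM in AGM against 0.903 CPM in skin, a log2 change of 5.12 ± 0.28 (adjusted p = 1.6e-05). Cx3cr1, the fractalkine receptor, had 24.2 and 21.4 CPM in AGM against 0.401 CPM in skin. C1qc, a chain of the first complement component, had 11.9 and 12 CPM in AGM against 1 count in skin, a ratio of 237 (95% counting interval 42.4 to 9381). Adgre1, the F4/80 antigen, had 8.43 and 6.57 CPM against 1 count in skin. Ctss, the lysosomal protease cathepsin S, was at 0 counts in skin and at least 51.9-fold higher in AGM. Rac2, a GTPase of blood cells, and Ppbp, a platelet chemokine, had ratios of 185 (33 to 7321) and 110 (30.4 to 912). With second-project skin added, Ctss, Adgre1, C1qc and Ptprc turned direction without passing the test, with log2 changes of -3.61, -2.58, -0.12 and -0.45. The 12 listed macrophage genes summed to 73.4 and 65.3 CPM in AGM labelled E10.5 and to 3.95 and 5.11 CPM in AGM labelled E11.5. They summed to 31.2, 200 and 384 CPM in first-project skin labelled E10.5, E12.5 and E14.5, so high values were not particular to AGM.

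All 14 erythroid genes rose, with a median log2 change of 2.20. Hbb-y, an embryonic beta-like globin, had 9503 and 5204 CPM in AGM and 1070 CPM in skin, a log2 change of 2.73 ± 0.40. The 2 AGM libraries differed by more for globins than for most genes: globin mRNA made up 2.05% and 1.17% of AGM counts and 0.26% of skin counts. Hbb-bt, an adult beta globin, had 139 and 61.3 CPM in AGM and 2.71 CPM in skin, but 58.3% of its 50-base stretches also occur in another gene. Gata1, the master factor of red cells, had 20.3 and 13.2 CPM in AGM and 4.92 CPM in skin. How much circulating blood each dissection held was not tested.

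Immediate early genes, which are switched on within minutes of a stimulus, differed widely. Of 10 listed, 8 rose and none fell, with a median log2 change of 2.0. Fos (chromosome 12, 85473890 to 85477273) had 159 and 152 CPM in AGM against 1.1 CPM in skin, a log2 change of 7.08 ± 0.31 (adjusted p = 4.8e-06). Fosb (chromosome 7, 19302696 to 19310051) had 111 CPM in each AGM library against 0.201 CPM in skin, with a log2 change of 9.02 ± 0.56. Egr1 had 157 and 143 CPM in AGM against 6.22 CPM in skin, with a log2 change of 4.54 ± 0.25. Jun, which pairs with Fos in the AP-1 factor, had 222 and 204 CPM in AGM against 72.3 CPM in skin. Atf3 and Nr4a1 did not pass the test, with 4.91 and 5.47 CPM of Atf3 in AGM and 6.37 CPM in skin. Across the AGM series the list summed to 887 and 816 CPM at the labelled E9.5, 710 and 532 CPM at E10.5 and 198 and 166 CPM at E11.5, against 175 CPM in skin E9.5. The time between dissection and freezing is not given in the labels, and its part was not tested.

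Promoter sequence is shown for Fos and Fosb, the 2 members with the largest changes, because the motif TGACG, a core that CREB/ATF factors bind, lies near the start of both. Of the 10 listed genes 8 were found in the RefSeq promoter table (GRCm38.p6). The 250 bases before the start are printed 5′ to 3′ on the gene's strand, with TGACG or its reverse complement in capitals.
Fos, chr12:85473640-85473889, plus strand: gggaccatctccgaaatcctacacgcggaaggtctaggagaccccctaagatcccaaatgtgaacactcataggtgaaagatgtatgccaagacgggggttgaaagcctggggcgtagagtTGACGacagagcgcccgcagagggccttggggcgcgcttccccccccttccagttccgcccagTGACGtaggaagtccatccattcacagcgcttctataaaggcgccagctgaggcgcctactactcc
Fosb, chr7:19310046-19310295, minus strand: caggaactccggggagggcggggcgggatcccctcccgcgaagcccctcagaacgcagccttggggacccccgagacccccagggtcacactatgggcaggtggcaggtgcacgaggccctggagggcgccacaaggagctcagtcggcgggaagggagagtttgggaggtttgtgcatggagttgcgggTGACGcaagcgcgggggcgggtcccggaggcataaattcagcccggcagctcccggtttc
The motif begins 129 and 66 bases before the start of Fos and 60 bases before that of Fosb. It occurs within 250 bases of the start in 6 of the 8 listed genes found (Atf3, Dusp1, Fos, Fosb, Junb and Nr4a1), against 17.8% of all 32851 promoters in the table. Atf3 and Nr4a1, which did not pass the test, hold it too. A match describes the letters and does not show binding.

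Neural genes were lower in AGM. All 15 genes of the neural progenitor list fell, with a median log2 change of -5.29, or -4.95 with genes at 0 counts placed at their bound. Sox1, a factor of the neural tube, had 0.0677 and 0.123 CPM in AGM against 91.8 CPM in skin, a log2 change of -9.92 ± 0.24 (adjusted p = 1.6e-06). Pax6, which patterns the neural tube, had 0.169 and 0.37 CPM in AGM against 118 CPM in skin, with a log2 change of -8.84 ± 0.31. Sox2, shared by neural and other progenitors, had 6.77 and 6.2 CPM in AGM against 195 CPM in skin, with a log2 change of -4.95 ± 0.14. Sox3 had 0.372 and 0.247 CPM in AGM against 99.8 CPM in skin. Every value of these genes in AGM lay below the skin value. For Sox1, Pax6 and Sox3 this was a condition for being named among the 15 lowest changes.

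Factors of single dorsoventral domains fell as well. Msx3, of the dorsal neural tube, had 1 count over both AGM libraries against 44.6 CPM in skin, a ratio of 2400 (95% counting interval 430 to 94913). Olig3 of the dorsal progenitors had 2 counts in AGM against 26.7 CPM in skin. Dbx1, of the intermediate domain, had 0 and 0.247 CPM in AGM against 37.2 CPM in skin. Prdm13, also of the dorsal neural tube, was at 0 counts in AGM and had 16.6 CPM in skin, at least 297-fold lower in AGM. Olig2, which specifies motor neurons and oligodendrocytes, had 0.237 and 0.288 CPM in AGM against 51.7 CPM in skin. Foxb1 had 0.0339 and 0.164 CPM in AGM against 30 CPM in skin. Lower in AGM were also Hes3, with 0.0677 and 0.0411 CPM against 7.07 CPM in skin, and Fgf15, with 0.305 and 0.247 CPM against 18.5 CPM in skin. Fgf15 shares 21.3% of its 50-base stretches with another gene.

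Hes5, a repressor switched on by Notch signalling in neural progenitors, had 0.237 and 0.247 CPM in AGM against 33.3 CPM in skin. Its log2 change was -7.13 ± 0.28 (adjusted p = 2.6e-06), and 21.8% of its 50-base stretches occur in another gene. Its promoter is shown because RBPJ, the DNA-binding partner of Notch, recognises TGGGAA. The 250 bases before the start from the same RefSeq table hold 2 matches on either strand, in capitals.
Hes5, chr4:154960673-154960922, plus strand: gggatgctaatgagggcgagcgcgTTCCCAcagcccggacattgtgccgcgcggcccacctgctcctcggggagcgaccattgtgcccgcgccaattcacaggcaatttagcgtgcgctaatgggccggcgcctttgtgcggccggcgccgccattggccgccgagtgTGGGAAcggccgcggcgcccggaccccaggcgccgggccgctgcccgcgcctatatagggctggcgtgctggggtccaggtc
The matches begin 226 and 82 bases before the start, and 21.6% of all promoters in the table hold this motif. Of other genes of Notch signalling in the lists, Dll4, Notch4, Hey1, Hey2 and Hes7 did not pass the test, while Dll3, Nrarp, Dll1 and Notch1 were among those that fell. With the AGM round as a block, Dll4 passed, with a log2 change of -1.03 (adjusted p = 0.00754 by edgeR). Dll1, a Notch ligand, had 10.3 CPM in each AGM library against 49.5 CPM in skin and Notch1 had 83.9 and 68.2 CPM in AGM against 209 CPM in skin. Dll1 and Notch1 act in the neural tube and in the presomitic mesoderm.

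Young neuron genes were mixed. Of 17, 10 fell, 3 rose and 4 did not pass. Neurog2, which commits progenitors to neurons, had 0.406 and 1.85 CPM in AGM against 41.9 CPM in skin, with a log2 change of -5.32 ± 0.45. The neurofilament genes Nefm, with 164 and 153 CPM in AGM against 71.8 CPM in skin, and Nefl, with 55 and 41.1 CPM against 20 CPM in skin, rose. Nefl and Nefm share 31.8% and 18.6% of their 50-base stretches with other genes. Slc17a6, a vesicular glutamate transporter, also rose, with 1.02 and 0.657 CPM in AGM against 1 count in skin. Of 12 neural crest genes, 3 rose, among them Ngfr and Snai2, and 5 fell, beside 18.0% higher and 15.9% lower of all genes tested. Sox10, which marks migrating crest, had 47.5 and 52.5 CPM in AGM and 45.2 CPM in skin. Pax3, of dorsal neural tube, crest and somite, fell with 4.71 and 13.1 CPM in AGM against 82.4 CPM in skin.

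**Figure D3:**
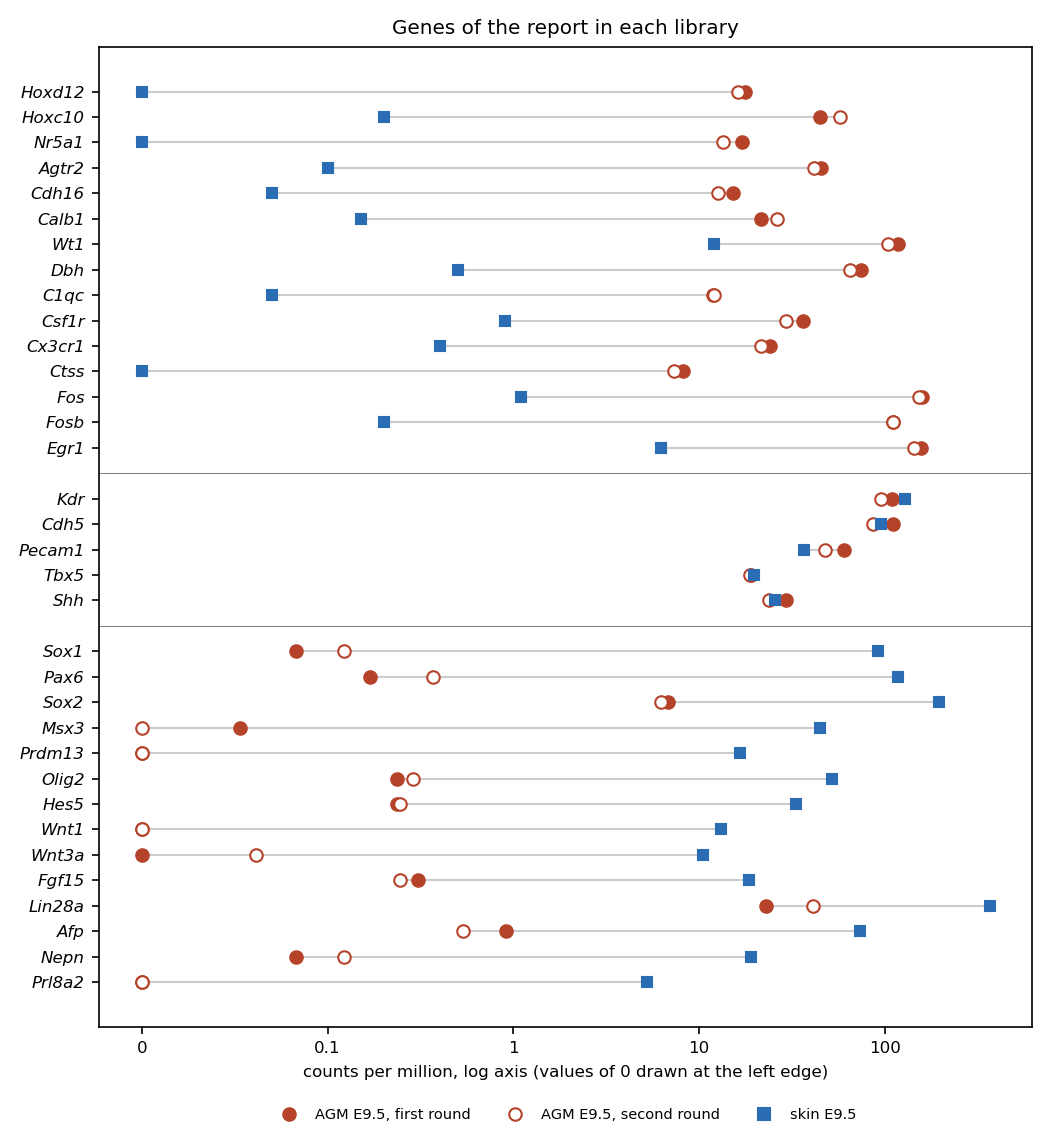
CPM on a log axis (x axis) of chosen genes (y axis) in the first-round and second-round AGM E9.5 libraries (filled and open circles) and the skin E9.5 library (squares). The upper block rose in AGM, the middle block did not pass the test and the lower block fell. Within the upper and lower blocks both circles lie on the same side of the square. That was a condition for naming the 15 highest and 15 lowest changes.

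Wnt genes went in both directions. Of 20 ligands and targets, 13 fell, 4 rose and 3 did not pass, with a median log2 change of -1.39. Wnt1, a signal of the dorsal neural tube and midbrain, was at 0 counts in AGM and had 13.1 CPM in skin, at least 236-fold lower in AGM. Wnt3a, of the tailbud and roof plate, had 1 count over both AGM libraries against 209 counts in skin, a ratio of 565 (95% counting interval 100 to 22419). Wnt7a had 0.339 and 0.247 CPM in AGM against 18.8 CPM in skin. The targets Axin2 and Lef1 fell, with 39 and 40 CPM of Axin2 in AGM against 109 CPM in skin, a log2 change of -1.51 ± 0.12. The 4 that rose were Wnt9b, Wnt11, Wnt5a and Wnt4, ligands known in kidney and mesenchyme. Wnt5a had 158 and 126 CPM in AGM against 63 CPM in skin, with a log2 change of 1.12 ± 0.24, and -0.14 with second-project skin added.

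Tailbud genes were mixed. Of 16, 6 fell, 3 rose and 7 did not pass, beside 18.0% higher and 15.9% lower of all genes tested. Nkx1-2, of the caudal neural plate and axial progenitors, had 0.169 and 0.164 CPM in AGM against 7.68 CPM in skin, and Cdx1 had 0.711 and 0.247 CPM in AGM against 11.8 CPM in skin. T (brachyury), of tailbud and notochord, rose, with 12.4 and 12.3 CPM in AGM against 3.96 CPM in skin. Its call was lost without the first-round AGM library (adjusted p = 0.0547 by edgeR). The presomitic genes Msgn1, Hes7 and Tbx6 had at most 1.12 CPM in any of the 3 libraries. Somite derivatives were split: of 13, 6 rose and 3 fell. The sclerotome genes Pax1 and Pax9 rose, with 198 and 160 CPM of Pax1 in AGM against 67.9 CPM in skin. Myog, of differentiating muscle, had 25.8 and 39.4 CPM in AGM against 13.9 CPM in skin, and an adjusted p by edgeR of 0.0747 without the second-round AGM library. Meox1, of the whole somite, fell, with 63.7 and 112 CPM in AGM against 181 CPM in skin.

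Most genes of foregut endoderm and liver were lower in AGM. Of 14 genes of foregut endoderm and liver, 11 fell and none rose, with a median log2 change of -3.77, or -3.49 with genes at 0 counts placed at their bound. Afp, alpha-fetoprotein of yolk sac and fetal liver, had 0.914 and 0.534 CPM in AGM against 73.4 CPM in skin, a log2 change of -6.67 ± 1.04 (adjusted p = 0.00212). Apoa1, an apolipoprotein of the same tissues, had 2 and 6 counts in AGM against 249 counts in skin. Fgb, a fibrinogen chain made in liver, had 1 count over both AGM libraries against 6.02 CPM in skin. Nepn, a gene of the gut endoderm, had 0.0677 and 0.123 CPM in AGM against 19.1 CPM in skin. Of 12 yolk sac and plasma protein genes, 11 were tested, 6 fell, 1 rose and 4 did not pass. Prl8a2, a hormone of the decidua, was chosen after its values were seen. It was at 0 counts in AGM and had 5.22 CPM in skin, at least 93.7-fold lower in AGM. These proteins are known from tissues other than skin, and the part of liver, gut, yolk sac or decidual RNA in the skin library was not tested. Of 9 hindgut and cloaca genes, 1 rose, 2 (Cdx2 and Foxa2) fell and 6 did not pass, beside 18.0% higher and 15.9% lower of all genes tested. Shh had 29.4 and 23.9 CPM in AGM and 25.7 CPM in skin.

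Genes of the skin itself were mixed. Of 14 genes of surface ectoderm and simple epithelium, 6 fell, none rose and 8 did not pass, with a median log2 change of -0.42. Krt18 was among those that fell, at -0.71 ± 0.14, and had a log2 change of 0.21 with second-project skin added. Epcam, an epithelial adhesion molecule, had 22.8 and 26 CPM in AGM and 27.3 CPM in skin, and Cdh1, E-cadherin, had 27.6 and 26.1 CPM in AGM and 30.5 CPM in skin. Wnt6, of the surface ectoderm, had 5.89 and 3.57 CPM in AGM against 22.5 CPM in skin, with a log2 change of -2.29 ± 0.24. Of 12 genes of epidermal commitment, 3 rose, among them Gata3 and Klf4, and 3 fell (Trp63, Krt5 and Msx2). The shares over all genes tested were 18.0% higher and 15.9% lower. Krt5 lost its call without the first-round AGM library, with an adjusted p by edgeR of 0.151. Klf4 had a log2 change of 1.94 ± 0.22, and -1.09 with second-project skin added. Trp63, the p63 factor that commits ectoderm to epidermis, had 2.61 and 2.38 CPM in AGM against 10.6 CPM in skin, with a log2 change of -2.14 ± 0.29.

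Mesenchymal matrix and smooth muscle genes rose in AGM. Of 13 dermal and matrix genes, 10 rose and none fell, with a median log2 change of 1.47. Col3a1, fibrillar collagen III, had 1607 and 1170 CPM in AGM against 575 CPM in skin, a log2 change of 1.22 ± 0.20, and -0.51 with second-project skin added. Eln, elastin, differed 3.26-fold between the AGM libraries, with 52.6 and 16.1 CPM, and had 3.21 CPM in skin. Of 8 smooth muscle genes, 6 rose and 2 did not pass. Myh11, the smooth muscle myosin, had 12.1 and 6 CPM in AGM against 0.753 CPM in skin, and Acta2 had 142 and 114 CPM in AGM against 40 CPM in skin. The log2 change of Acta2 was -0.19 with second-project skin added. Dermal and matrix genes summed to 34812 CPM in the first-project skin library of E14.5.

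Genes that mark early stages of the embryo fell. Of 9, 7 fell and 2 rose, with a median log2 change of -1.35. Lin28a fell with a log2 change of -3.58 ± 0.26 (adjusted p = 6.3e-05). Lin28b, its paralogue, had 36.5 and 56.3 CPM in AGM against 288 CPM in skin, with a log2 change of -2.69 ± 0.21. Trim71, a regulator that let-7 represses, had 36.9 and 45.4 CPM in AGM against 250 CPM in skin, with a log2 change of -2.66 ± 0.14. Hmga2, another let-7 target, rose, with 1186 and 1406 CPM in AGM against 683 CPM in skin. The other member that rose was Utf1, with 3.08 and 0.945 CPM in AGM against 2 counts in skin, and an adjusted p by edgeR of 0.0577 without the first-round AGM library.

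Cell cycle genes were mostly lower and glycolysis genes were mixed. Of 20 cell cycle genes, 14 fell, 1 rose and 5 did not pass, with a median log2 change of -0.60. Ccnd2, cyclin D2, had 792 and 756 CPM in AGM against 1601 CPM in skin, a log2 change of -1.10 ± 0.12, while Ccnb1, cyclin B1, rose. Of 13 hypoxia and glycolysis genes, 6 fell and 4 rose. Slc2a1, the glucose transporter GLUT1, had 103 and 85.3 CPM in AGM against 525 CPM in skin, with a log2 change of -2.53 ± 0.16. Ldha, lactate dehydrogenase A, had 646 and 659 CPM in AGM against 1304 CPM in skin. Pgk1 rose, with 130 and 126 CPM in AGM against 25.2 CPM in skin, and 53.9% of its 50-base stretches occur in another gene. Its log2 change was 2.29 ± 0.15, and -0.09 with second-project skin added. Of 10 imprinted growth genes, 6 rose and none fell. Cdkn1c, an inhibitor of growth, had 535 and 529 CPM in AGM against 153 CPM in skin, with a log2 change of 1.75 ± 0.11, and H19 had 5237 and 5750 CPM in AGM against 2196 CPM in skin.

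Calls in other signalling pathways are given beside those of all genes tested, of which 18.0% were higher and 15.9% lower. Of 15 FGF genes, 4 fell and 11 did not pass, with a median log2 change of 0.05. Of 16 tested genes of the BMP pathway, 4 rose and 2 fell. Bmp4 had 54.9 and 48 CPM in AGM against 21.2 CPM in skin, and the antagonist Fst had 7.31 and 8.01 CPM in AGM against 36.2 CPM in skin. Of 12 hedgehog genes, 2 rose and 2 fell. Ptch1, the receptor and target, had 328 and 294 CPM in AGM and 308 CPM in skin. Of 15 retinoic acid genes, 6 rose, 3 fell and 6 did not pass. Aldh1a2, the main enzyme of synthesis in the trunk, had 212 and 188 CPM in AGM and 184 CPM in skin, and Crabp1, a binding protein, had 134 and 138 CPM in AGM against 386 CPM in skin.

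**Figure D4:**
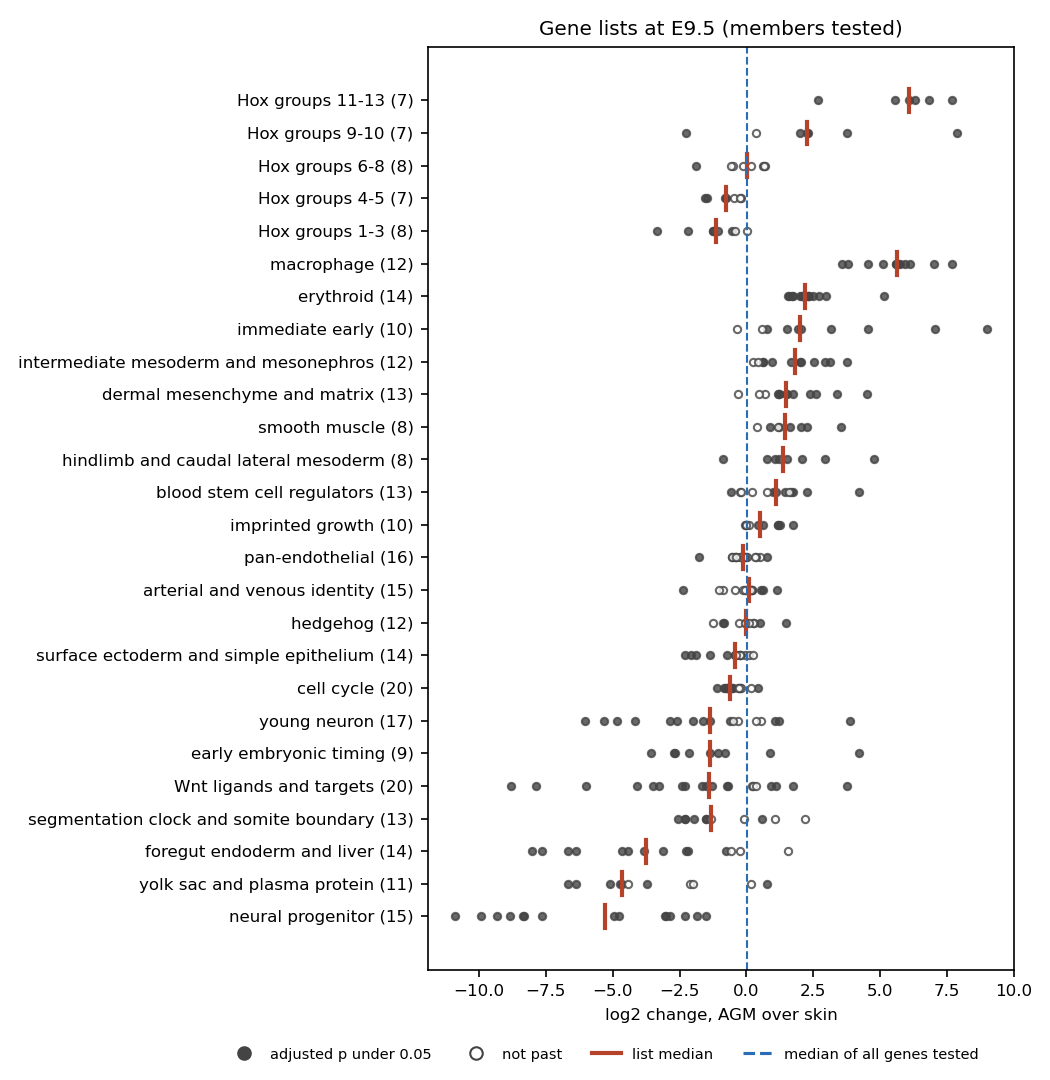
Log2 change, AGM over skin at E9.5 (x axis), of the tested members of 26 gene lists (y axis, number tested in brackets). Filled points passed the adjusted threshold, red bars are list medians and the dashed line is the median of all genes tested, 0.04. Members with at most 3 counts in a group are drawn at no more than their floor or count ratio. Tested members at or under the floor in both groups are counted in the brackets but not drawn. The red bars use the fitted changes of all tested members without that limit. Posterior Hox and macrophage lists lie furthest to the right and neural progenitors furthest to the left.

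Some of the largest differences concerned genes with near-identical copies. Rpl23a, a ribosomal protein gene among the 15 highest changes, had 134 and 161 CPM in AGM against 1.3 CPM in skin. Of its 50-base stretches, 80.8% occur in another gene. The second-project skin library labelled E9.5 held 137 CPM of Rpl23a. First-project skin labelled E10.5, E12.5 and E14.5 held 0.484, 0.292 and 0.313 CPM of it. The part of the sequencing project in this difference was not tested. Actg1, cytoplasmic gamma actin, had 803 and 738 CPM in AGM against 8.83 CPM in skin, with 37.4% shared. Gapdh had 880 and 1013 CPM in AGM against 54.7 CPM in skin, with 25.1% shared. Actb, with 9.1% shared, had 2767 and 2470 CPM in AGM and 3402 CPM in skin and did not pass the test. Every cell uses these genes, and the sources used here do not give how reads were divided between copies, so their tissue differences are uncertain.

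The balance of calls moved with shared sequence. Among 8054 genes with no shared stretch, 17.3% were called higher and 17.2% lower. Among 453 genes with over 75% shared, 26% were called higher and 3.09% lower, with a median log2 change of 1.16. Of 88 cytosolic ribosomal protein genes tested, 70 were higher, 4 lower and 14 not past, with a median log2 change of 2.03. The 15 of them with at most 10% shared had a median of 0.68. Ribosomal protein genes summed to 30393 and 33226 CPM in AGM against 13408 CPM in skin, and the other 3 first-project skin libraries held 9256 to 14322 CPM. In a fit restricted to genes with at most 10% shared, chosen after seeing the data, 2794 were higher and 2717 lower of 15612 tested.

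**Figure D5:**
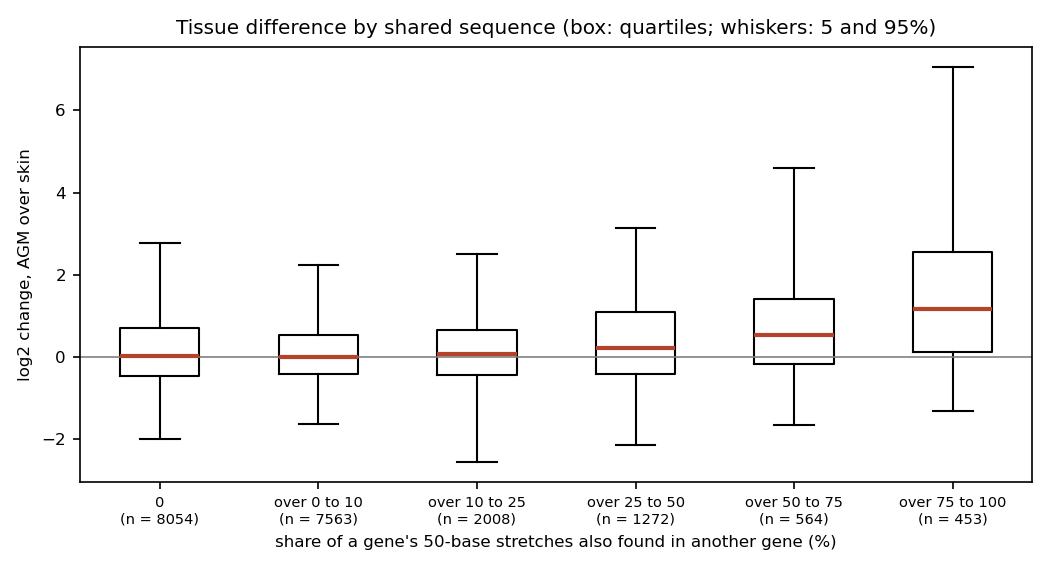
Log2 change, AGM over skin at E9.5 (y axis), of tested genes grouped by the share of their 50-base stretches that also occurs in another annotated gene (x axis). Boxes give quartiles, red lines medians and whiskers the 5th and 95th percentiles. The median lay at 0.02 with no shared sequence and at 1.16 above 75% shared.

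The E9.5 difference was set against the same difference at E10.5, which used the AGM and first-project skin libraries of that age. The 2 comparisons differed for 1529 of 19945 genes (7.67%) by the interaction term, with 1006 (5.04%) higher at E9.5 and 523 (2.62%) lower. With the AGM round as a block, 5134 genes differed, and with second-project skin added none did, with 62 at an unadjusted p under 0.05. Without the first-round E9.5 library, the first-round E10.5 library or the second-round E10.5 library, 945, 931 and 959 genes differed. No skin age had a replicate here.

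The genes with the largest interaction were read by their levels. Robo3, a receptor of commissural axons, had 2.1 and 0.247 CPM in AGM and 1.76 CPM in skin at E9.5, and 0.286 and 0.387 CPM in AGM and 78.4 CPM in skin at E10.5. Hmx1, a gene of sensory ganglia, had 5.11 and 0.781 CPM in AGM and 0.702 CPM in skin at E9.5, against 2.16 and 0.775 CPM in AGM and 20.5 CPM in skin at E10.5. In both genes, and in Ppp1r1c and Slc17a6, the skin library of E10.5 was the high one. Ctss had 1.35 and 1.28 CPM in AGM and 1.58 CPM in skin at E10.5.
In the other direction, Nepn had 0.122 and 2.21 CPM in AGM and 0 counts in skin at E10.5, and Gpr50 had 0.339 and 0.164 CPM in AGM and 7.93 CPM in skin at E9.5. Tbx5 had 13.7 and 6.78 CPM in AGM and 0.044 CPM in skin at E10.5. Barx1, of the stomach and arches, had 2.47 and 3.41 CPM in AGM and 13.4 CPM in skin at E9.5 (adjusted p by edgeR of 0.0661 without the first-round AGM library), and 4.57 and 1.28 CPM in AGM and 0.044 CPM in skin at E10.5. Serpinf2, a plasma protein of the liver, had 0.474 and 0.288 CPM in AGM and 7.68 CPM in skin at E9.5. For Nepn, Barx1, Serpinf2, Tbx5 and Gpr50 (0.264 CPM in skin E10.5) the skin library of E9.5 lay above that of E10.5.

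Values at both ages are set side by side for the leading groups. Sox1 had a log2 change of -9.92 at E9.5, while it was -5.86 a day later by label. Pax6 had -8.84 at E9.5 and -5.93 at E10.5. Lin28a had -3.58 at E9.5 and 0.58 at E10.5. Csf1r had 5.12 at E9.5 and 0.77 at E10.5, where AGM held 13 and 11.3 CPM and skin 7.18 CPM (adjusted p of the difference between ages = 0.00175 by edgeR's quasi-likelihood test).

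The 2 AGM libraries labelled E9.5 were close to each other. Of 8568 genes with 20 CPM or more in either, 99.7% lay within 2-fold, with a median ratio of 1.1. The 5 genes furthest apart towards the first round were Gm10736, Rpl38-ps2, Gm15564, Mir6236 and Gm23935, of which Gm23935 had 852 and 257 CPM. Towards the second round they were Xist, Rpl14-ps1, Dmrt2, Gm42047 and C1qtnf3. Xist, the RNA that silences one X chromosome in females, had 0.203 and 494 CPM in the AGM libraries and 582 CPM in skin. The Y-linked Ddx3y had 77.4 and 54.4 CPM in AGM and 32.9 CPM in skin. The sex of the embryos is not given in the labels, and its part in the round difference was not tested. Dmrt2, a somite gene, had 10.8 and 29.3 CPM in AGM and 33.2 CPM in skin.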

How the data were processed

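The authors deposited a table of raw read counts per gene for 14 libraries with 53465 genes. Per the submitters' processing notes, Trimmomatic 0.36, STAR 2.5.0a, featureCounts 1.6.0 and DESeq2 1.20.0 were named with the GRCm38 (mm10) build, and their settings for strand and multi-mapping reads are not given in the sources used here. Gene positions, lengths and shared 50-base stretches came from GENCODE M21, which held 53274 of the IDs. CPM is the count divided by the library's total over all genes of the table.

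The test was edgeR 4.0.16 (R 4.3.3; TMM factors, filterByExpr by group, quasi-likelihood test, Benjamini-Hochberg threshold 0.05). The fit held 6 AGM and 4 first-project skin libraries as 7 group means with 3 residual degrees of freedom, all from AGM pairs. DESeq2 1.42.0 and limma 3.58.1 were alternatives. Counting intervals and floors of 3 counts cover counting error only.

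The AGM libraries carry 2 project numbers, called rounds. Differences between rounds correlated across ages at 0.612, 0.424 and 0.527 over 14503 genes, so the rounds deviated together, and a fit with the round as a block was run. Skin has no such pair.

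Named were the 15 highest and 15 lowest changes among called genes with 5 CPM or more in the higher group, the 4 largest called changes and the most abundant member of each list, the 5 largest differences from E10.5 each way and the 5 largest round ratios each way. For the 15 highest and 15 lowest changes, both AGM libraries also had to lie on the same side of the skin library. Not every gene the rule allows is described, and other list members were chosen after their values were seen. Members and the 47 lists were chosen with earlier results of these data known. Second-project skin was left out except as an alternative. Some results are not reported here.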

Additional observations from a re-analysis of the deposited data

Results flagged for a closer look

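The tissue difference at E9.5 differed from that at E10.5 by the interaction term of edgeR's quasi-likelihood fit, with an adjusted p under 0.05, for each gene below, among 1529 of 19945 genes tested (7.67%). Values are the log2 change, AGM over skin, at E9.5 minus that at E10.5, with 2 AGM libraries and 1 skin library at each age, and no explanation was tested.

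Among neural and axial genes the difference was -4.05 for Sox1, -3.0 for Sox3, -2.91 for Pax6, -6.02 for Olig2, -2.45 for Hes5, 7.26 for Robo3, 5.83 for Hmx1, 3.41 for Nefl, 2.71 for Nefm, 1.30 for Ngfr, -3.34 for Nkx1-2, -0.90 for Lef1, -1.67 for Meox1, -1.73 for Hoxb1, 3.96 for Hoxc10 and -4.92 for Cdx2. Among urogenital and limb genes the difference was -1.83 for Osr1, 1.64 for Pax2, -2.21 for Wt1, 2.47 for Lhx1, -1.70 for Lhx9, -5.56 for Gata4, 1.84 for Wnt4, 2.22 for Wnt9b and -4.69 for Hand1. Among blood and vessel genes the difference was 4.35 for Csf1r, 4.64 for Cx3cr1, 3.59 for Spi1, 3.84 for Hbb-bt and -5.46 for Etv2. Among epithelium, gut and plasma protein genes the difference was -1.25 for Cdh1, -1.72 for Epcam, -2.40 for Krt8, -2.44 for Krt18, -1.87 for Foxa2 and -6.38 for Serpinf2. Among timing, growth and other genes the difference was 1.31 for Cdkn1c, 1.10 for Dusp1, -2.08 for Fst, -1.43 for Gapdh, -8.53 for Gpr50, -1.19 for Ldha, -4.15 for Lin28a, -2.44 for Lin28b, -1.47 for Rps29, -0.71 for Rpsa, -1.87 for Sall4 and -2.38 for Trim71.

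For genes with at most 3 counts in one of the 4 groups, the adjusted p of the difference is given in place of a fitted size. By edgeR it was 0.0127 for Adgre1, 0.0118 for Barx1, 0.00305 for C1qc, 0.0126 for Calb1, 0.00177 for Ctss, 0.00802 for Nepn, 0.0107 for Ppbp, 0.00556 for Ppp1r1c, 0.00886 for Rac2, 0.00374 for Slc17a6, 0.00482 for Tbx5 and 0.00371 for Tcf21.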

How the results depend on the processing

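For AGM against skin at E9.5, the count of 6759 called genes was 6799 with median-of-ratios size factors, 6637 with library totals, 5016 with DESeq2, 6426 with limma-voom, 7559 without a low-count filter and 6060 with only the 3 libraries compared. It was 1480 when a log2 change of 1 was tested against, 10232 with the AGM round as a replicate block, and 0 with all 14 libraries (950 at an unadjusted p under 0.05). The block took the round difference out of the error, with a coefficient of variation of 6.3%, and hardly moved the fitted changes. Keeping the main calls with the block was thus nearly fixed in advance and is no support for them. Leaving out 1 AGM library at a time gave 4683 to 6456. All 6759 calls were also made with the block, with the same sign, and 4198 were made with the same sign without either AGM E9.5 library. For the difference from E10.5, the count of 1529 was 2651 without a low-count filter, 5134 with the replicate block, 327 against a log2 change of 1 and 0 with all 14 libraries (62 at an unadjusted p under 0.05). Leaving out 1 AGM library gave 931 to 1559, with 945 without the first-round E9.5 library and 931 and 959 without the first-round and second-round E10.5 libraries. Of 502 tested list genes, 300 were called, 371 with the block, 158 against a log2 change of 1 and 0 with all 14 libraries, and 268 to 304 without 1 AGM library. Of 137 called genes examined singly, 130 kept their call without the first-round E9.5 library and 133 without the second-round one. Barx1, Ephb4, Etv2, Krt5, T, Unc5b and Utf1 lost it without the first, and Etv2, Flt1, Hand1 and Myog without the second. With all 14 libraries 14 of the 137 turned direction, none past the threshold. Their log2 changes there were -0.19 for Acta2, -2.58 for Adgre1, -2.18 for Agtr2, -0.12 for C1qc, -0.51 for Col3a1, -3.61 for Ctss, 0.15 for Hand1, -1.09 for Klf4, 0.21 for Krt18, -0.09 for Pgk1, -0.45 for Ptprc, -1.27 for Runx1, -0.88 for Unc5b and -0.14 for Wnt5a. That alternative raised the coefficient of variation to 81.5%, against 12.1%, and the cause of the gap between the skin projects was not tested.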

Other observations

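Lists not described above were split or mostly below the threshold, by edgeR's quasi-likelihood test with Benjamini-Hochberg adjustment. Among all genes tested, 18.0% were higher and 15.9% lower. Of 16 tested genes of heart muscle and cardiac mesoderm, Hand2 and Isl1 were higher in AGM, none was lower and 14 did not pass. Of 18 genes of pharyngeal arch mesenchyme, 6 were higher and 5 lower. Of 11 primordial germ cell genes, Dppa3 and Pou5f1 were higher and Prdm1, Tfap2c and Alpl lower. Of 13 genes of the segmentation clock and somite boundary, Epha4 was higher and 6 were lower, with a median log2 change of -1.33. Of 8 heat shock genes, 4 were higher and 1 lower, and 6 of the 8 share over 10% of their 50-base stretches with other genes. Of 9 genes of notochord and floor plate, T was higher and 3 lower, and the call of T was lost without the first-round AGM library.

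The second-project skin library labelled E9.5, which stands outside the comparison, had 0.227 CPM of Sox1, 23.5 CPM of Lin28a and 22 CPM of Csf1r. The first-project library of the same labelled age had 91.8 CPM of Sox1, 366 CPM of Lin28a and 0.903 CPM of Csf1r.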
